A study of Mus musculus with 12 samples.

Results

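The 37 genes described here make sterols, sense them, move them and store them. They were chosen by symbol, with the values known from earlier work on these data but with no measured threshold in the rule, out of 28188 gene symbols in the table, and all 37 were present and could be tested in every comparison. They comprise 5 genes of sterol sensing, 20 enzymes of sterol synthesis, 4 genes of sterol transport and storage, 5 genes of the liver X receptor (LXR) system and 3 genes of fatty acid synthesis.

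Poly(A)-selected RNA was sequenced from B cells and from dendritic cells, both taken from mouse spleen at an age of 12 weeks. Each cell type was taken from NOD and from NOD.Idd2 mice, in 4 groups of 3 libraries each. NOD is an inbred strain that develops autoimmune diabetes spontaneously and is the control. NOD.Idd2 carries the Idd2 diabetes locus of B10 origin on the NOD background, so both strains share that background, and the series asks what the locus does to gene expression. The labels give neither the ends of the introgressed segment nor whether libraries come from separate or pooled animals, so p-values measure the spread between these samples only, which may be technical.

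Cells make cholesterol from acetyl-CoA through mevalonate, squalene and lanosterol. When the membranes of the endoplasmic reticulum run low in sterol, Scap escorts the precursors of the SREBP transcription factors, encoded by Srebf1 and Srebf2, to the Golgi, where they are cut and released. Insig1 and Insig2 hold them back when sterol is plentiful. Oxidised sterols activate the LXR receptors, encoded by Nr1h2 and Nr1h3, which raise sterol export. In lymphocytes this pathway is known to be drawn on when cells grow and divide.

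Promoters of SREBP target genes typically pair a sterol regulatory element with a binding box for NF-Y, a general transcription factor that works beside SREBP. Both motifs were searched on both strands in RefSeq promoters of GRCm38.p6, each 300 bases long, from 250 bases before to 50 bases after a start. The NF-Y box CCAAT lay in 24 of the 29 member genes that the table lists (82.8%), in 16 of 17 listed sterol synthesis enzymes (94.1%) and in 41.1% of all 27025 genes listed. The element core TCACNCCAC lay in 1 of the 29 (3.45%), Hmgcs1, and in 1.44% of all genes. A match describes letters only, and genes with several listed starts had more sequence searched. Near matches were not counted and members not listed were not searched, so a gene without a match may still hold a sterol regulatory element. The sequences before the starts of 3 genes on which the results turn are shown, in lower case with the matches in capitals (CCAAT, which reads ATTGG where it lies on the other strand, and the element core in Hmgcs1): Srebf2 and Sc5d, which passed between strains in B cells once the replicate number was fitted as a block but not without it, and Hmgcs1, the one member with both motifs.
Srebf2, chr15:82147019-82147180, plus strand: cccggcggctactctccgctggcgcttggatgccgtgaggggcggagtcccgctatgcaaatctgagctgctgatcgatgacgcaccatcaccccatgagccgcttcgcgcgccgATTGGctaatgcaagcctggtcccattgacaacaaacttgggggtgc
Sc5d, chr9:42264301-42264550, minus strand: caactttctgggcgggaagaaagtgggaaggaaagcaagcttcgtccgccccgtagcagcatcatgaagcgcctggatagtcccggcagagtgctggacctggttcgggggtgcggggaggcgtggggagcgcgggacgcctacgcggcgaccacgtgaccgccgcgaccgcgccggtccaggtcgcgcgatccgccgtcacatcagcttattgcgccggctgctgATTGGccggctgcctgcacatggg
Hmgcs1, chr13:119690101-119690350, plus strand: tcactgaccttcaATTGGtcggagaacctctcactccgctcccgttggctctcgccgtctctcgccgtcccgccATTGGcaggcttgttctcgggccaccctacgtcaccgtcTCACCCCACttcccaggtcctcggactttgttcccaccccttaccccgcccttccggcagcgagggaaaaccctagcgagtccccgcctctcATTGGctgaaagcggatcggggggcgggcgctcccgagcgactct

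The B cell libraries held 40344883 to 44632276 counts. The dendritic cell libraries held 22769062 to 30337812 counts, apart from NOD.Idd2 replicate 3 with 8663421. Levels are CPM (counts scaled to a common library size by edgeR's TMM method), as mean ± SD with n = 3, and strain differences are log2 changes, NOD.Idd2 minus NOD, with a standard error (SE). The cell labels held against their markers: 6 B cell markers summed to 11043 to 11678 CPM in B cells and 428 to 485 in dendritic cells, mostly from Cd22 there (428 ± 23.8 CPM in NOD), and 8 dendritic cell markers to 11.4 to 14.6 and 3835 to 4126 CPM. Xist was at 1564 to 2088 CPM in B cells and at most 0.154 in dendritic cells, where Y-linked Ddx3y was at 239 to 306 CPM against 0 in B cells, so a difference between cell types cannot be told apart from one between sexes.

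In B cells the strain difference of 3 of the 37 genes depended on the fit for its call: Srebf2, which encodes the SREBP that mainly drives sterol synthesis, Sc5d, the sterol desaturase of a late step, and Scd2, a fatty acid desaturase. All 3 were 1.20- to 1.29-fold higher in NOD.Idd2. None of the 37 passed an adjusted p of 0.05 in edgeR's quasi-likelihood test, in which 0.16% of 15011 genes did (24 genes). With the replicate number as a block, 3 of the 37 passed, all higher in NOD.Idd2, where 1.04% of all genes did (156 genes) and 0.5% were higher. DESeq2 called the same 3 genes without a block, and limma-voom called none.

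Srebf2 was at 218, 207 and 213 CPM in NOD B cells and at 258, 243 and 274 CPM in NOD.Idd2 B cells. The groups did not overlap, and the lowest NOD.Idd2 library stood above the highest NOD library. The log2 change was 0.28 (SE 0.06, 1.21-fold, adjusted p = 0.364) and with the block 0.28 (SE 0.04, adjusted p = 0.00309). Sc5d was at 34.0, 33.2 and 30.5 CPM in NOD and at 43.2, 40.9 and 42.6 CPM in NOD.Idd2 B cells. Its groups were the most clearly apart of the late enzymes, with a log2 change of 0.37 (SE 0.06, 1.29-fold, adjusted p = 0.124), and 0.37 with the block (SE 0.05, adjusted p = 0.00474). Scd2 was at 170, 168 and 162 CPM in NOD and at 217, 204 and 180 CPM in NOD.Idd2, again with no overlap, though NOD.Idd2 replicate 3 lay close to the NOD libraries. Its log2 change was 0.26 (SE 0.07, 1.20-fold, adjusted p = 0.606), and 0.26 with the block (SE 0.04, adjusted p = 0.00566).

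**Figure D1:**
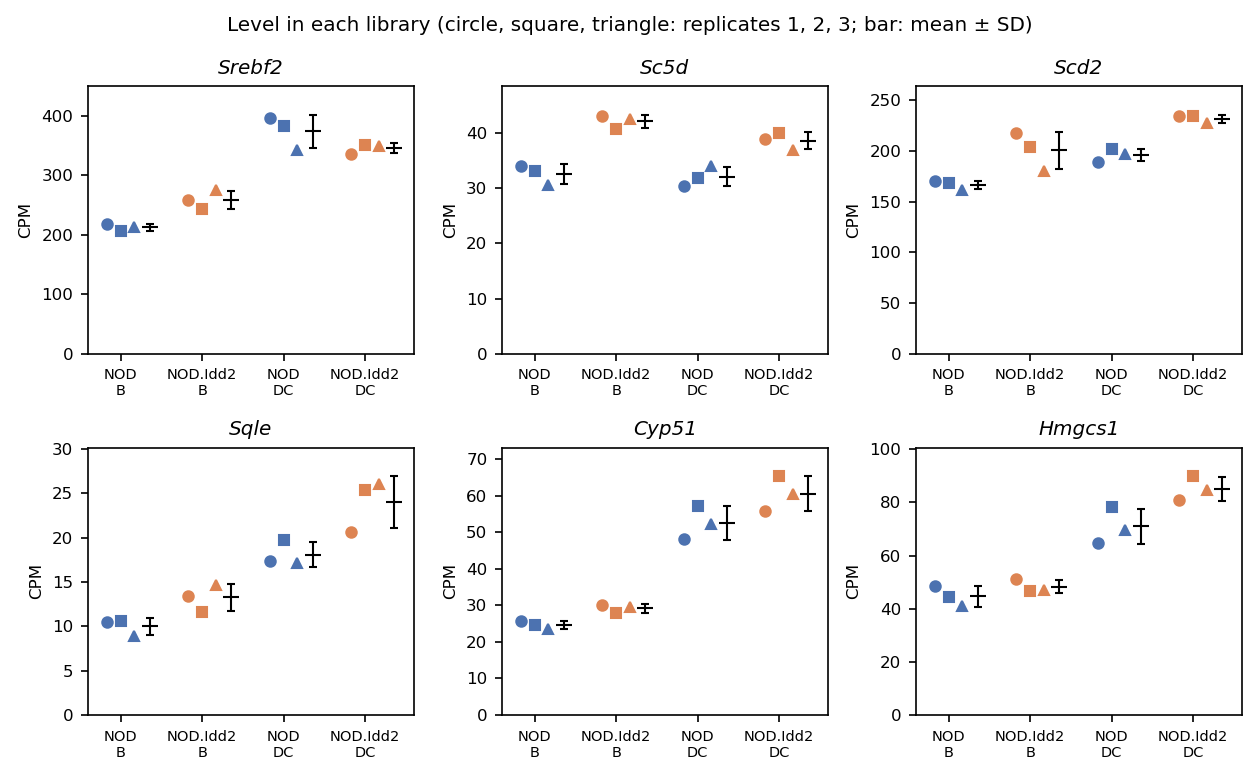
Level in CPM (vertical axis, from 0) of Srebf2, Sc5d, Scd2, Sqle, Cyp51 and Hmgcs1 in each of the 12 libraries, by strain and cell type (DC, dendritic cells), with circles, squares and triangles for replicates 1, 2 and 3 and a bar for the mean ± SD. Sc5d and Scd2 were higher in every NOD.Idd2 library than in any NOD library of the same cell type, and Srebf2 was so in B cells but not in dendritic cells.

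Across the sterol sensing genes, all 5 log2 changes in B cells were above 0, with a median of 0.13 against 0.01 over all genes tested. Srebf1, which encodes the SREBP tied more to fatty acid genes, was at 50.1, 53.0 and 57.8 CPM in NOD and at 61.0, 58.2 and 64.9 CPM in NOD.Idd2 B cells. The gap between these groups was under 1 CPM at its narrowest, and the change of 0.19 (SE 0.07) did not pass (adjusted p = 0.750, with the block 0.0693). Scap was almost level between strains, at 75.5 ± 4.63 and 76.3 ± 2.32 CPM.

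Of the 10 genes grouped as acetyl-CoA to squalene, which include Ggps1 and Sqle, 7 had log2 changes above 0 in B cells (median 0.14). None passed either fit. Sqle, the squalene epoxidase, was at 10.5, 10.6 and 8.92 CPM in NOD and at 13.5, 11.7 and 14.6 CPM in NOD.Idd2. The groups did not overlap, and the log2 change was 0.40 (SE 0.11, adjusted p = 0.719, with the block 0.101). Hmgcs1, which makes HMG-CoA, had overlapping groups at 44.6 ± 3.82 and 48.4 ± 2.45 CPM. Idi1, the isomerase of the 5-carbon isoprenoid units, had a large change of 0.33 but a larger error (SE 0.59), since replicate 3 was at 0.838 CPM in NOD and 0.989 CPM in NOD.Idd2 while the other 4 B cell libraries were at 2.66 to 3.79 CPM.

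Of the 10 enzymes grouped as lanosterol to cholesterol, which include Lss, 9 had log2 changes above 0 in B cells (median 0.10). Sc5d alone passed with the block. Cyp51, the lanosterol demethylase, was at 25.7, 24.7 and 23.5 CPM in NOD and at 30.2, 27.9 and 29.5 CPM in NOD.Idd2. These groups did not overlap either, and the change of 0.24 (SE 0.06) did not pass (adjusted p = 0.540, with the block 0.0644). Lbr, the lamin B receptor, which also reduces sterols, was level at 299.8 ± 11.4 and 301 ± 10.7 CPM.

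Of the transport and LXR genes none passed in B cells with or without the block. Soat1, which esterifies cholesterol for storage, was at 211, 190 and 205 CPM in NOD and at 188, 193 and 180 CPM in NOD.Idd2 B cells, with overlapping groups and a log2 change of -0.11 (SE 0.05, adjusted p = 0.784), the lowest of the 37. Abcg1, an LXR target that exports cholesterol, was at 89.4, 93.7 and 84.7 CPM in NOD and at 104, 103 and 93.2 CPM in NOD.Idd2. NOD.Idd2 replicate 3 lay within the NOD range, and the change of 0.16 (SE 0.06) did not pass (adjusted p = 0.750, with the block 0.0620). Fasn, the fatty acid synthase, and Scd1, the major stearoyl-CoA desaturase of B cells here, had log2 changes of 0.01 (SE 0.05) and 0.03 (SE 0.05).

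Over the whole set in B cells, 31 of 37 log2 changes were above 0, with a median of 0.10 and a range of -0.11 to 0.40, and over all genes tested 52.6% were above 0 with a median of 0.01. The groups did not overlap for 6 members, all higher in NOD.Idd2 (Srebf1, Srebf2, Sqle, Cyp51, Sc5d and Scd2), where 6.8% of all genes were higher and 6.04% lower without overlap. At an unadjusted p under 0.05, 7 of the 37 passed, where 6.4% of all genes did.

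Other values moved with strain in B cells. The summed level of 8 proliferation markers was 81.9, 86.7 and 82.8 CPM in NOD and 113, 122 and 81.0 CPM in NOD.Idd2 B cells. All 8 had log2 changes above 0 (median 0.31), and none passed without the block and 1 with it, Nusap1, a protein of the mitotic spindle. In NOD.Idd2, replicate 3 had the lowest sum and the lowest Scd2 level, and the highest levels of Srebf2 and Sqle. Sc5d and Cyp51 were highest in NOD.Idd2 replicate 1 and lowest in replicate 2. In NOD, Scd2 was also lowest in replicate 3 (162 CPM), whose sum lay between those of replicates 1 and 2. The summed level of 5 monocyte markers was 14.8 ± 3.39 CPM in NOD and 10.2 ± 2.33 CPM in NOD.Idd2, and all 5 had log2 changes below 0 (median -0.38). All 5 NK cell markers (median -0.47), all 5 neutrophil markers tested (median -1.19) and all 4 erythroid markers tested (median -0.60) were below 0 as well, each list at a summed level of at most 28.7 CPM in any B cell library. None of these markers passed without the block. With it the NK cell marker Gzma (log2 -0.85, adjusted p = 0.00605) and the monocyte marker Chil3 (log2 -1.84, adjusted p = 0.0202) fell. The macrophage marker Adgre1 (log2 0.46, adjusted p = 0.00145) rose with the block. Its list was split, with 3 of the 8 macrophage markers tested above 0 and 5 below (median -0.12 with the block). The part of these values in the strain differences was not tested.

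**Figure D2:**
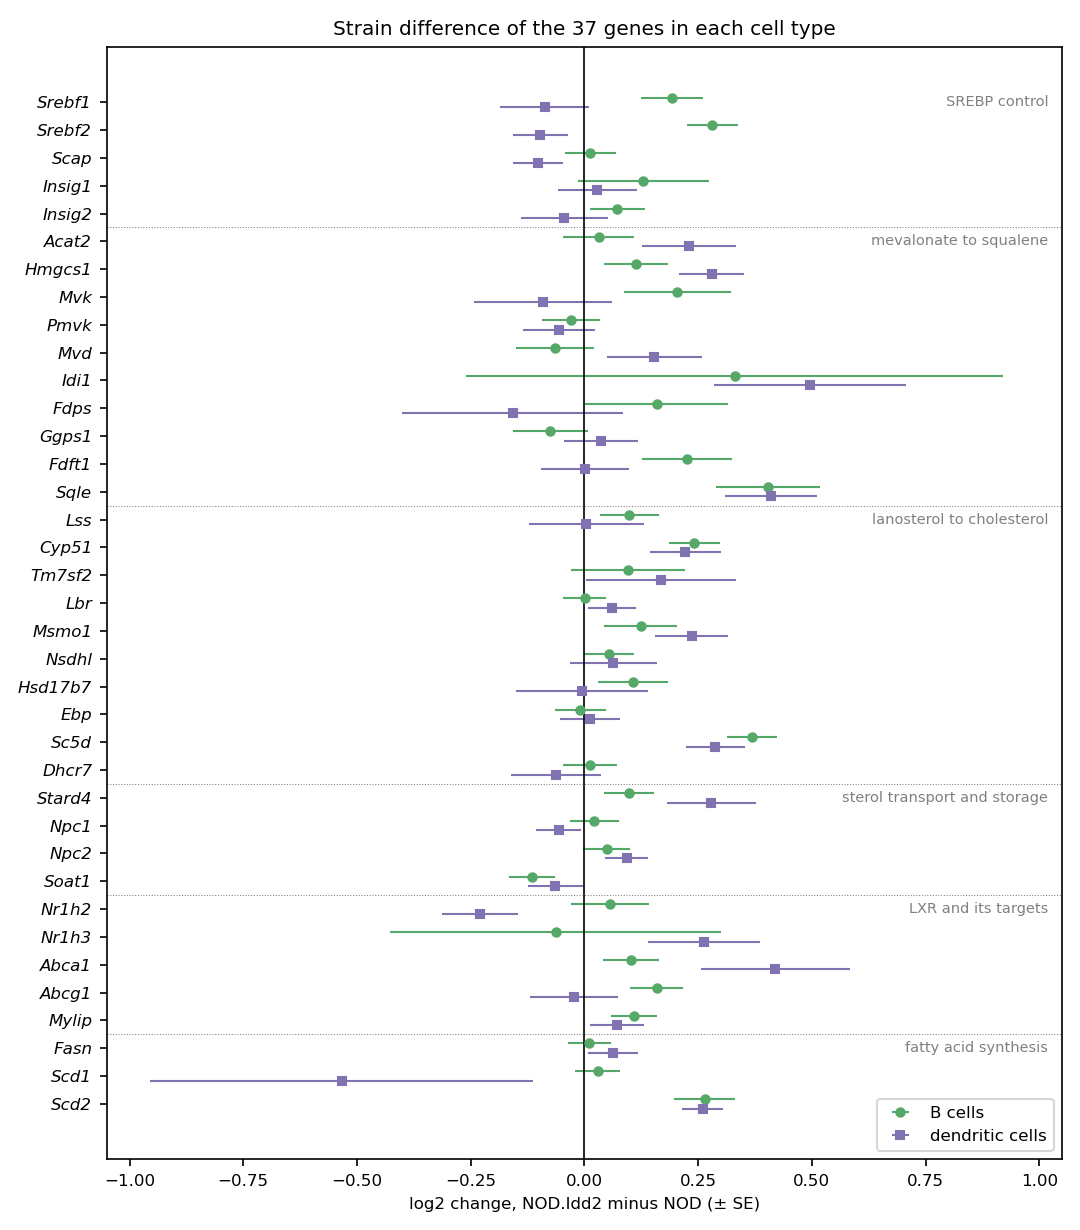
Strain difference of each of the 37 genes (rows, grouped by role), as the log2 change NOD.Idd2 minus NOD (horizontal axis) in B cells (circles) and dendritic cells (squares), with bars of 1 SE. In B cells 31 of 37 points lie above 0, in dendritic cells 23, and the 5 sterol sensing genes all lie further to the left in dendritic cells.

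In dendritic cells Scd2 was the 1 gene of the 37 that rose, by 1.20-fold, and no member fell. Of all 14441 genes tested, 1.29% passed (186 genes) and 0.665% rose, so that 1 of 37 is near the background. Scd2 was at 189, 202 and 197 CPM in NOD and at 234, 234 and 227 CPM in NOD.Idd2 dendritic cells. The groups did not overlap, and the log2 change of 0.26 (SE 0.05, adjusted p = 0.0157) was about the size measured in B cells. The call was lost when NOD.Idd2 replicate 1 (adjusted p = 0.0910), 2 (0.132) or 3 (0.0928) was left out, and in a fit of all 12 libraries (0.125).

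Among the enzymes, 15 of 20 log2 changes were above 0 in dendritic cells (median 0.06). None passed in edgeR's main fit, filtered and without the block, or in limma-voom, while DESeq2 called Hmgcs1 (adjusted p = 0.0339) and Sqle (0.0354). Some other edgeR fits called enzymes too: Hmgcs1 with the block (adjusted p = 0.0420), and with no filter on low counts Hmgcs1 (0.00172), Sqle (0.000788) and Sc5d (0.0117). Dendritic cell libraries with the same number did not deviate together (correlations of 0.00411, 0.0261 and 0.0569). Calls with the block in dendritic cells thus have no pairing behind them. Sqle was at 17.3, 19.8 and 17.2 CPM in NOD and at 20.6, 25.3 and 26.0 CPM in NOD.Idd2 dendritic cells (log2 0.41, SE 0.10, adjusted p = 0.0853). Hmgcs1 was at 64.9, 78.2 and 69.8 CPM in NOD and at 81.0, 89.9 and 84.6 CPM in NOD.Idd2 (log2 0.28, SE 0.07, adjusted p = 0.104). Neither gene's groups overlapped, though the gap in Hmgcs1 was under 3 CPM. Sc5d was at 30.5, 32.0 and 34.0 CPM in NOD and at 39.1, 40.1 and 36.9 CPM in NOD.Idd2. Its groups were apart here as in B cells (log2 0.29, SE 0.06, adjusted p = 0.0577).

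Cyp51 and the C4-methyl sterol oxidase Msmo1, which acts in the same stretch of the pathway, had overlapping groups. Cyp51 was at 48.2, 57.3 and 52.3 CPM in NOD and at 56.0, 65.4 and 60.6 CPM in NOD.Idd2 (log2 0.22, SE 0.08, adjusted p = 0.272). Msmo1 was at 29.4, 35.9 and 32.5 CPM in NOD and at 38.8, 39.9 and 34.4 CPM in NOD.Idd2 (log2 0.24, SE 0.08, adjusted p = 0.258). In both genes the strain gap was of the size of the spread within NOD. Stard4, a carrier of cholesterol between membranes, was at 36.9, 49.6 and 39.9 CPM in NOD and at 50.8, 53.8 and 46.4 CPM in NOD.Idd2, where NOD replicate 2 reached into the NOD.Idd2 range (log2 0.28, SE 0.10, adjusted p = 0.272).

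For sterol sensing, 1 of 5 log2 changes was above 0 in dendritic cells, with a median of -0.09. Srebf2 was at 396, 383 and 342 CPM in NOD and at 336, 350 and 350 CPM in NOD.Idd2 dendritic cells, with NOD replicate 3 inside the NOD.Idd2 range (log2 -0.10, SE 0.06, adjusted p = 0.600). Nr1h2, the LXR found in most tissues, was at 101, 86.5 and 83.4 CPM in NOD and at 84.4, 71.3 and 72.5 CPM in NOD.Idd2, with overlap (log2 -0.23, SE 0.08, adjusted p = 0.296). Nr1h3, the other LXR, was at 9.64, 7.71 and 7.82 CPM in NOD and at 10.3, 9.62 and 10.0 CPM in NOD.Idd2, also with overlap (log2 0.26, SE 0.12, adjusted p = 0.453).

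In the dendritic cells 23 of the 37 changes were above 0 (median 0.04), and 50.2% of all genes were (median 0.00). The groups did not overlap for 5 members that were higher in NOD.Idd2 (Acat2, Hmgcs1, Sqle, Sc5d and Scd2), where 7.06% of all genes were higher without overlap. Npc1, the transporter that lets cholesterol leave lysosomes, was the 1 member lower without overlap, where 9.41% of all genes were. Its levels were 196, 207 and 197 CPM in NOD and 194, 184 and 194 CPM in NOD.Idd2, and its change did not pass (log2 -0.06, SE 0.05, adjusted p = 0.743). At an unadjusted p under 0.05, 11 of the 37 passed, where 11.3% of all genes did.

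Proliferation markers differed between strains in the same dendritic cell libraries. Their summed level was 288, 340 and 330 CPM in NOD and 421, 476 and 466 CPM in NOD.Idd2, with no overlap. All 8 had changes above 0 (median 0.49), and 3 rose: Mki67 (log2 0.50, SE 0.07, adjusted p = 0.00263), Top2a (log2 0.58, SE 0.08, adjusted p = 0.00269) and Nusap1 (log2 0.82, SE 0.14, adjusted p = 0.0157). The 5 monocyte markers summed to 677, 482 and 523 CPM in NOD and to 725, 716 and 715 CPM in NOD.Idd2. These sums came mostly from Ccr2 and Csf1r (means of 247 and 309 CPM in NOD). Of the 5 markers 3 had changes above 0 and 2 below (median 0.21), the latter Ly6c2 and Chil3, both at low levels. All 6 plasma cell markers were above 0 (median 0.54), at 316 to 344 CPM in sum in NOD and 336 to 431 CPM in NOD.Idd2. All 5 NK cell markers (median 0.52) and all 4 neutrophil markers tested (median 0.44) were above 0 too, at sums of at most 12.2 CPM, and 5 of 6 B cell markers were below 0 (median -0.42). Beside the proliferation markers none of these passed, and with the block the monocyte marker Ccr2 did (log2 0.59, adjusted p = 0.0190). Of the 8 dendritic cell markers 6 were above 0 and 2 below (median 0.07). None of the 8 passed without the block, and 1 did with it (adjusted p = 0.0362). Among them Cd209a was at 287, 359 and 339 CPM in NOD and at 409, 436 and 372 CPM in NOD.Idd2, with no overlap. The part of any of these lists in the changes of Scd2, Sqle, Hmgcs1 and Sc5d was not tested. In bulk samples fewer cells of a type and less RNA per cell cannot be told apart.

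**Figure D3:**
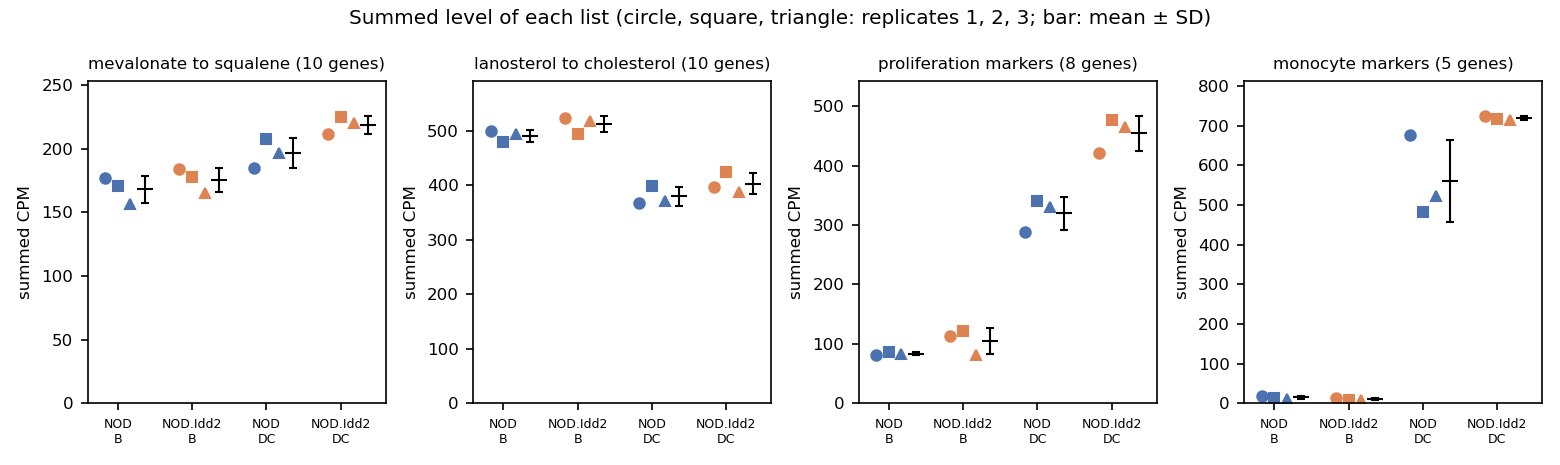
Summed CPM (vertical axis, from 0) of the enzymes from mevalonate to squalene and from lanosterol to cholesterol, of 8 proliferation markers and of 5 monocyte markers in each library, with replicates 1, 2 and 3 as circles, squares and triangles and a bar for the mean ± SD. In dendritic cells the sums of the mevalonate enzymes (184.6 to 208 CPM in NOD, 211 to 225 in NOD.Idd2) and of the proliferation markers do not overlap between strains.

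Sc5d is the member on the chromosome of the Idd2 locus whose strain groups did not overlap in either cell type. It lies at chromosome 9, 42251595 to 42264256, on the minus strand (GRCm38). The nearest tested neighbours differed in other ways. Gm39321, an uncharacterised transcript 105088 bases away, fell in B cells (log2 -1.52, SE 0.15, adjusted p = 0.0166) and also in dendritic cells (log2 -1.44, SE 0.24, adjusted p = 0.0117). Sorl1, a sorting receptor 127297 bases away, rose in dendritic cells (log2 0.33, SE 0.05, adjusted p = 0.0109) and was at -0.29 in B cells (SE 0.05, adjusted p = 0.249). Tbcel, on the other side at 148059 bases, was at 0.09 and -0.08 (SE 0.05 and 0.06) and passed in neither. Scap is the other member on this chromosome, at 110333288 to 110384950, and its log2 changes were 0.01 in B cells and -0.10 in dendritic cells. Whether sequence differences between the strains changed how reads of chromosome 9 genes matched GRCm38 was not tested.

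Of 44 further genes of lipid uptake, transport and related control, listed by function beside the 37 with earlier results of these data known, 39 B cell and 41 dendritic cell changes could be tested. Of the former none passed without the block, and 24 were above 0 (median 0.02). In dendritic cells 1 gene fell and none rose, where 1.29% of all genes passed, so that 1 of 41 is near the background, and 22 changes were above 0 (median 0.02). The gene that fell was Gramd1b, which encodes Aster-B, a carrier of cholesterol from the plasma membrane to the endoplasmic reticulum.

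Gramd1b also lies on chromosome 9, at 40293233 to 40531383, 1720211 bases from Sc5d. It was at 91.8, 93.6 and 96.9 CPM in NOD and at 78.2, 71.3 and 69.2 CPM in NOD.Idd2 dendritic cells (log2 -0.35, SE 0.06, adjusted p = 0.0106). The groups did not overlap, and the call was lost without NOD.Idd2 replicate 2 (adjusted p = 0.104) or 3 (0.0758). In B cells it was at 44.3, 49.9 and 48.9 CPM in NOD and at 33.3, 34.7 and 35.3 CPM in NOD.Idd2, again with no overlap. That change of -0.47 (SE 0.06) had an adjusted p of 0.0587, and of 0.000343 with the block, and DESeq2 called it without a block (1.07e-10).

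The strain effect itself was compared between the cell types, as the change in dendritic cells minus the change in B cells. None of the 37 differences passed, where 0.109% of 16588 genes did (18 genes), and 2 of the 37 had an unadjusted p under 0.05, Srebf2 and Nr1h2, where 8.22% of all genes did. Srebf2 came closest, at -0.40 (SE 0.08, adjusted p = 0.146, with the block 0.0510), and it passed with DESeq2 (-0.38, SE 0.09, adjusted p = 0.0150), where limma-voom called no member. Nr1h2 was at -0.30 (SE 0.13, adjusted p = 0.590). The 5 sterol sensing genes all had differences below 0, with a median of -0.14 against -0.02 over all genes. Sqle, Sc5d and Scd2 had differences of -0.01 (SE 0.16), -0.10 (SE 0.08) and -0.02 (SE 0.08), so a difference in their strain effects was not detected.

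The cell types differed far more than the strains. In NOD, 31 of the 37 genes differed between dendritic and B cells, with 21 of them higher in the dendritic cells and 10 lower. Of all genes 76.4% differed, 37.7% higher and 38.7% lower. In NOD.Idd2 29 of the 37 differed, 17 higher and 12 lower, where 75.7% of all genes did, 36.7% higher and 38.9% lower. Levels per kilobase of exon, which allow genes to be compared, put Scd1 first in NOD B cells at 356 ± 19.2 CPM per kb, followed by Mylip at 75.4 ± 2.80 and Lbr at 63.0 ± 2.40. In NOD dendritic cells Srebf2 came first at 52.0 ± 3.94 CPM per kb, followed by Scd2 at 35.9 ± 1.13 and Soat1 at 34.9 ± 2.99, a pair whose ranges overlap. The lowest in NOD B cells was Nr1h3 at 0.196 ± 0.0529. In NOD dendritic cells it was Fdps, the farnesyl diphosphate synthase, at 0.639 ± 0.110, not apart from Idi1 at 0.680 ± 0.113. Fdps shares bases with the protein-coding Gm43738 on the same strand, so its low level is uncertain.

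**Figure D4:**
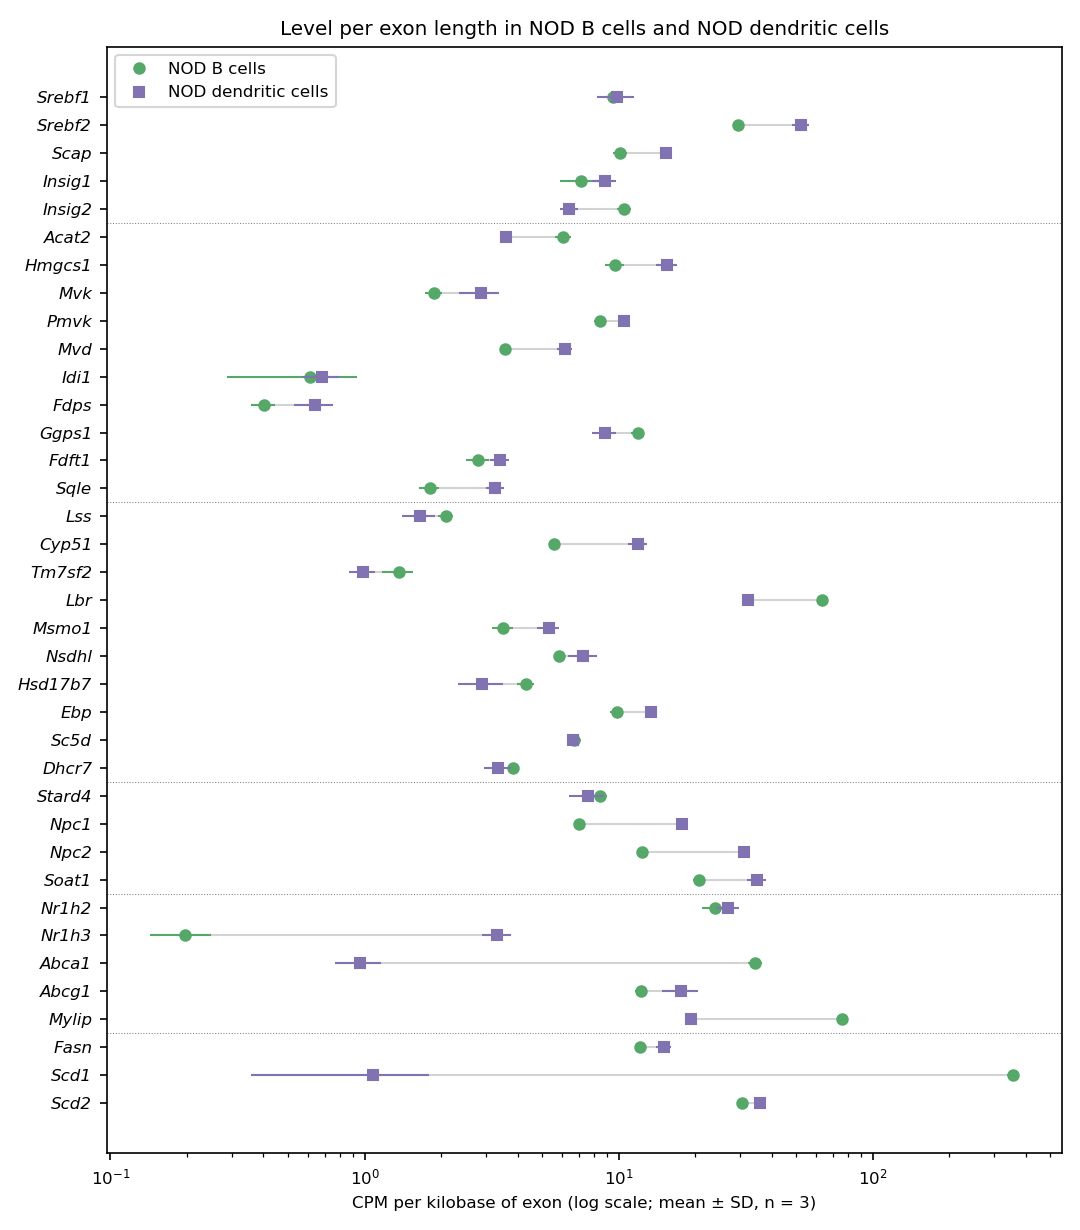
Level of each of the 37 genes in CPM per kilobase of exon (horizontal axis, log scale), as mean ± SD over 3 libraries in NOD B cells (circles) and NOD dendritic cells (squares), in rows grouped by role. The widest gaps are those of Scd1, Abca1 and Nr1h3, and none of the 20 enzymes differs by more than 2.14-fold (Cyp51).

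Among the sensing genes Srebf2 and Scap were higher in dendritic cells and Insig2 was lower. Between NOD libraries Srebf2 rose from 213 ± 5.96 CPM in B cells to 374 ± 28.3 in dendritic cells (log2 0.81, SE 0.06, adjusted p = 5.57e-08). Scap was at 71.3, 74.8 and 80.4 CPM in NOD B cells and at 120, 115 and 108 CPM in NOD dendritic cells (log2 0.59, SE 0.06). Insig2 was at 38.1, 33.7 and 37.7 CPM and at 20.7, 21.7 and 24.3 CPM (log2 -0.72, SE 0.09, adjusted p = 1.38e-05). None of these groups overlapped. Srebf1 did not pass in NOD, at 53.6 ± 3.88 and 55.7 ± 9.25 CPM, and Insig1 passed in NOD (log2 0.31, SE 0.13, adjusted p = 0.0499) and not in NOD.Idd2 (log2 0.18, SE 0.13, adjusted p = 0.230). The Insig1 call in NOD was lost in 9 of 20 alternative fits (adjusted p up to 0.202), among them those without NOD B cell replicate 3, NOD dendritic replicate 1 or 2, NOD.Idd2 B cell replicate 1 or 2, or NOD.Idd2 dendritic replicate 2.

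From acetyl-CoA to squalene, 7 of 10 genes were higher and 2 lower in NOD dendritic cells. Sqle had the largest rise (log2 0.86, SE 0.11, adjusted p = 1.9e-05), from the per-library values given above. Mvd, the decarboxylase that ends the mevalonate steps, was at 6.63, 6.38 and 6.82 CPM in NOD B cells and at 11.2, 10.7 and 12.3 CPM in NOD dendritic cells (log2 0.79, SE 0.09, adjusted p = 4.24e-06). Both were higher in every dendritic cell library. Acat2, which condenses acetyl-CoA at the entry of the pathway, went the other way, at 16.6, 15.3 and 14.3 CPM and at 9.19, 9.52 and 8.83 CPM (log2 -0.75, SE 0.08, adjusted p = 3.02e-06). So did Ggps1, which makes the geranylgeranyl chains used to anchor proteins, at 57.9, 58.4 and 52.4 CPM and at 36.6, 42.3 and 45.8 CPM (log2 -0.44, SE 0.09, adjusted p = 0.000644).

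From lanosterol onward the directions were split, with 4 genes higher and 4 lower in NOD dendritic cells. Cyp51 had the largest rise, from 24.6 ± 1.10 to 52.6 ± 4.55 CPM (log2 1.09, SE 0.07, adjusted p = 2.55e-08), and Msmo1 rose from 21.5 ± 2.02 to 32.6 ± 3.26 CPM (log2 0.60, SE 0.09, adjusted p = 4.71e-05). Lbr fell from 307, 287 and 306 CPM to 150, 161 and 152 CPM (log2 -0.96, SE 0.05, adjusted p = 2.86e-09). Since Lbr is the most abundant of the 10, their summed level was lower in NOD dendritic cells, at 380 ± 16.8 CPM against 491 ± 10.8 in NOD B cells. Hsd17b7, a sterol ketone reductase, was at 20.4 to 23.6 CPM in NOD B cells and fell to 14.9 ± 2.97 CPM in NOD dendritic cells (log2 -0.57, SE 0.13, adjusted p = 0.00143). Sc5d was level, with a log2 difference of -0.02 (SE 0.06, adjusted p = 0.756). Nsdhl and Ebp, sterol enzymes of the X chromosome, were both higher in dendritic cells (log2 0.31, SE 0.08 and 0.44, SE 0.06), which came from the other sex.

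The genes that move cholesterol out of lysosomes were higher in dendritic cells. Npc1 was at 80.9, 75.4 and 80.1 CPM in NOD B cells and at 196, 207 and 197 CPM in NOD dendritic cells (log2 1.35, SE 0.05, adjusted p = 6.17e-11). Npc2, its soluble partner, was at 70.3, 66.8 and 64.7 CPM and at 175, 165 and 166 CPM (log2 1.33, SE 0.05, adjusted p = 8.36e-11). The rises were 2.54- and 2.51-fold, and Soat1 was 1.69-fold higher (log2 0.76, SE 0.06, adjusted p = 1.74e-07). Stard4 did not pass (log2 -0.16, SE 0.10, adjusted p = 0.147).

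The LXR genes showed the opposite patterns within 1 system. Nr1h3, the LXR typical of macrophages, was at 0.490, 0.363 and 0.629 CPM in NOD B cells, 64 counts in all, and at 9.64, 7.71 and 7.82 CPM in NOD dendritic cells (log2 4.07, SE 0.24, adjusted p = 6.98e-09). Abca1, an LXR target that exports cholesterol to apolipoproteins, was at 381, 335 and 359 CPM in NOD B cells and at 12.1, 8.09 and 9.60 CPM in NOD dendritic cells (log2 -5.17, SE 0.15, adjusted p = 4.87e-12). Nr1h3 was thus lower where this target was higher. Mylip, an LXR target that marks lipoprotein receptors for breakdown, was at 241, 236 and 254 CPM and at 64.2, 59.0 and 63.2 CPM (log2 -1.97, SE 0.05, adjusted p = 2.11e-12). Abcg1, from the same class of targets, was higher in dendritic cells, at 129 ± 20.6 against 89.3 ± 4.49 CPM (log2 0.53, SE 0.09, adjusted p = 0.000226). Nr1h2, the more abundant LXR in both cell types, did not pass (log2 0.18, SE 0.09, adjusted p = 0.108). It was at 80.0 ± 8.72 CPM in NOD B cells and at 90.3 ± 9.39 CPM in NOD dendritic cells.

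The stearoyl-CoA desaturases, which put a double bond into saturated fatty acids, differed from each other. Scd1 was at 1849, 1695 and 1679 CPM in NOD B cells and at 3.65, 2.85 and 9.29 CPM in NOD dendritic cells (log2 -8.36, SE 0.36, adjusted p = 2.23e-10). Its neighbour on chromosome 19, Scd2, was slightly higher in dendritic cells (log2 0.23, SE 0.06, adjusted p = 0.00326). Fasn was at 136, 126 and 136 CPM and at 177, 160 and 157 CPM (log2 0.31, SE 0.05, adjusted p = 0.000176).

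The Scd1 that was left in dendritic cells ran with B cell transcripts. As a share of the NOD B cell mean, Scd1 was at 0.157% to 0.533% in the 6 dendritic cell libraries, the B cell marker Cd79a at 0.109% to 0.471% and Pax5, which fixes B cell identity, at 0.123% to 0.422%. All 3 were highest in NOD replicate 3. Abca1 was at 2.26% to 4.27% and Mylip at 24.2% to 27.1%, above the range of those markers, and neither was highest in NOD replicate 3. The source of these transcripts was not tested.

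**Figure D5:**
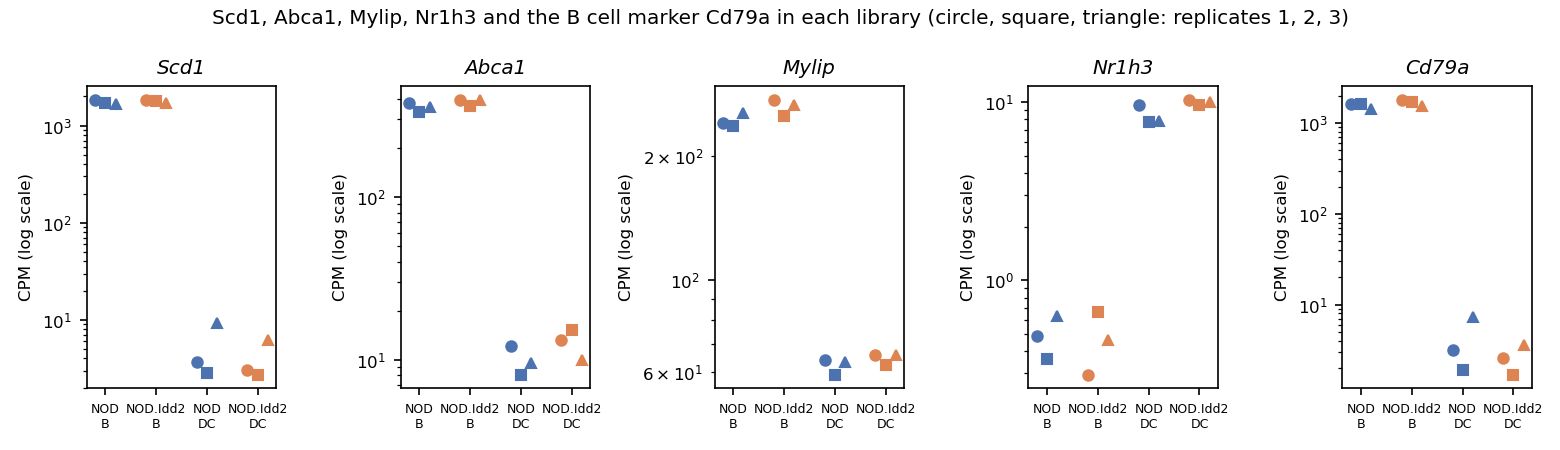
Level in CPM (vertical axes, log scale, each with its own range) of Scd1, Abca1, Mylip, Nr1h3 and the B cell marker Cd79a in each of the 12 libraries, with replicates 1, 2 and 3 as circles, squares and triangles. Scd1 and Cd79a are both highest among dendritic cell libraries in NOD replicate 3, at 9.29 and 7.32 CPM, and Nr1h3 is the 1 gene shown that is higher in dendritic cells.

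Replicate 3 of the B cells stood apart from replicates 1 and 2 in both strains. It was the lowest library in both strains for 8 of the 37 members (21.6%), among them Insig1, Idi1, Fdft1 and Scd2, and for 20.8% of all genes. Insig1, the sterol sensor that is itself an SREBP target, was at 24.1, 24.4 and 17.6 CPM in NOD and at 26.6, 25.1 and 20.9 CPM in NOD.Idd2 B cells. Replicate 3 was the highest in both strains for 6 members (16.2%), among them Srebf1 and Nr1h2, and for 20% of all genes. Without both replicate 3 libraries none of the 37 passed in the strain comparison of B cells.

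Some members share bases with another transcribed gene, and whether the counts use strand is not given. Cyp51 overlaps Akap9, Fdft1 overlaps Ctsb, Ggps1 overlaps Arid4b, Srebf1 overlaps Rai1 and Npc1 overlaps Rmc1, each on the opposite strand, and Tm7sf2 overlaps Vps51 on the same strand. Fdps overlaps the protein-coding Gm43738 on the same strand, which was at most 0.0333 CPM in any library. Reads of these pairs may not be told apart, and the values of these members are uncertain to that extent.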

How the data were processed

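Poly(A) RNA of 12 libraries was measured, with groups and replicate numbers read from the sample titles. The authors deposited raw counts per gene symbol, whole numbers, which were used as deposited, and a normalized table that was not used. The submitters' processing notes name STAR and GRCm38. No source used here names the counting tool, annotation, strand use or filters. The 37 members, the marker lists and the list of 44 further genes were chosen with earlier results of these data known, and the 44 do not cover every gene of these pathways.

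Genes were kept by filterByExpr (minimum count 10, minimum total 15). Tests were edgeR 4.0.16 quasi-likelihood tests under R 4.3.3 with TMM scaling and Benjamini-Hochberg adjustment over all genes tested, at 0.05. Strain comparisons used the 6 libraries of a cell type, and contrasts between cell types and the difference of strain effects used all 12. SE is the log2 change divided by the root of the F statistic. Exon lengths and positions came from GENCODE vM21, promoters from the RefSeq table. The tests were checked on simulated counts. Each library was drawn independently, so no shift was shared by libraries with the same number, unlike in the B cells. Only genes above a minimum mean CPM were changed, so the check does not cover members of low level. Of changes of 1.5-fold, the smallest simulated, 76.1% were recovered in B cells, 86.6% in dendritic cells and 41.8% for the difference of strain effects. False calls made up 8.72%, 8.17% and 3.23% of the calls, against the threshold of 0.05. Smaller changes, such as the strain differences of the members called here, were not simulated, so the check does not cover them.

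In B cells, libraries with the same number deviated together from the means of their groups, with correlations of 0.702, 0.485 and 0.854 across 15011 genes, each over 0.1, so the block was taken as a pairing there. The labels state no pairing, and NOD replicate 2 correlated as well with NOD.Idd2 replicate 1 (0.494). No pair of replicates agreed within sampling noise (lowest chi-square per gene 3.12). Genes were named by rule: members called in a strain comparison or in the difference, the 8 smallest p-values of each strain comparison, Sc5d, up to 2 members per role and direction with the largest fold between NOD cell types, and further pathway genes called between strains. Members of these lists outside the rule, and the neighbours of Sc5d, are given as examples chosen after their values were seen. Alternatives were DESeq2 1.42.0, limma-voom (limma 3.58.1), RLE size factors, no filter, a filter at 1 CPM in 3 libraries, the block, fits of all 12 or only the 6 libraries compared, each library left out, and both replicate 3 B cell libraries left out.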

Additional observations from a re-analysis of the deposited data

How the results depend on the processing

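In the strain comparison of B cells 0 of the 37 genes passed, and 3 did with the replicate block or DESeq2 (Srebf2, Sc5d and Scd2 in each) and 1 in a fit of all 12 libraries (Sc5d, adjusted p = 0.0152). Under limma-voom, RLE, either filter, each left-out library and without both replicate 3 libraries it was 0. In dendritic cells 1 passed, and 2 with the replicate block, 3 with DESeq2, 7 with no filter (6 higher, 1 lower), 0 in the fit of all 12 libraries and 0 to 3 with each library left out. It was 0 without NOD.Idd2 replicate 1, 2 or 3, 3 without NOD replicate 2 (Scd2, Hmgcs1, Stard4) and 2 without NOD replicate 3 (Scd2, Sc5d). Same-numbered dendritic cell libraries correlated at 0.00411, 0.0261 and 0.0569, so the labels' numbers do not pair them. For the difference of strain effects 0 passed, and 1 with DESeq2 (Srebf2). Between cell types 30 to 31 passed in NOD and 26 to 30 in NOD.Idd2 over all alternatives, and each of the 24 genes named as called there in NOD kept its direction in all 20, and its call except for Insig1, which lost it in 9. Alternatives were run for the called members and most of those given per library, not for every value near 0 nor for single genes between NOD.Idd2 cell types, and none of the log2 changes so recomputed was reversed. Among the members the replicate block also called Hmgcs1 in dendritic cells (adjusted p = 0.0420) and Insig1 between NOD.Idd2 cell types (0.0393), and beside the calls given in the report it changed no other.

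Over all genes the 24 calls in B cells became 156 with the block, 122 with DESeq2, 42 with all 12 libraries, 46 without both replicate 3 libraries and 13 to 18 with 1 library left out. The 186 in dendritic cells became 296 with DESeq2, 700 with no filter, 94 with all 12 libraries and 63 to 332 with 1 left out. The 18 of the difference became 114 with DESeq2, 56 with the block and 33 with no filter. Causes were not tested. With RLE 30 members were above 0 in B cells and 22 in dendritic cells. The 8663421 counts of NOD.Idd2 dendritic replicate 3 limit the members of low level there, such as Idi1 and Fdps.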
